A study of Mus musculus with 12 samples.

Results

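RNA-seq of fully grown mouse oocytes was compared between Marf1 gene trap females (GTMut) and wildtype females (WT), with 4 libraries of each genotype among the 12 of the series. The genes described are the 12732 of 24254 in the deposited table that reached 1 FPKM (fragments scaled to transcript length and library size) in at least 1 of these 8 libraries. All libraries came from C57BL/6 mice of 3 weeks that were killed 46 h after a dose of 5 IU of PMSG, a gonadotropin that makes follicles grow. Each held 80 oocytes of the germinal vesicle stage, per the design text, while the treatment label speaks of ovaries and the extraction label adds a Smart-seq2 step. Another Marf1 genotype, D272Mut, with 4 libraries made the same way, is used to test whether a GTMut value differs from that of the other Marf1 mutant. The D272Mut libraries also enter the estimate of spread used to compare GTMut with WT across genes. The labels do not say where the trap sits in Marf1, or whether libraries came from separate mice, so p-values measure the spread between libraries, which may be technical.

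MARF1 is an RNA-binding protein with a ribonuclease domain that mouse oocytes need to resume meiosis. A fully grown oocyte holds a stock of maternal messenger RNA and has largely stopped transcribing, so its RNA levels depend on synthesis during growth and on decay. A gene trap is an inserted cassette that interrupts a transcript.

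Marf1 itself, checked first, was nearly lost in the trapped oocytes. Its level was 26.2, 25.5, 26.4 and 25 FPKM in the WT libraries and 1.51, 1.3, 1.57 and 1.34 FPKM in the GTMut libraries. The groups lay far apart, and every GTMut library still showed a low level. The log2 fold change was -3.46 ± 0.05 (standard error) on the log2(FPKM + 1) scale, which is used for all fold changes here and understates those of low genes (limma, adjusted p = 7.71e-16). An exact two-sided permutation test of the 8 libraries gave p = 0.0286, the smallest value that 70 arrangements allow. In the authors' deposited table, without a pseudocount, the log2 ratio was -4.13. Marf1 lies on the minus strand at chr16:14109173-14163351 (mm10), and 77 of its exonic bases are shared with Nde1 on the opposite strand. Nde1, a regulator of microtubule motors, did not pass the test (11.8 ± 0.65 against 11.4 ± 1.1 FPKM, mean ± SD, n = 4 each), although quantile normalization gave it a passing log2 fold change of -0.32. Whether counting used strand is not stated in the sources, so reads of overlapping exons cannot be assigned with certainty.

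The libraries separated cleanly by genotype. Across genes, correlations of log2(FPKM + 1) were 0.969 to 0.989 among WT libraries, 0.966 to 0.98 among GTMut libraries and 0.781 to 0.81 between genotypes. The first principal component held 84.4% of the variance. A WT library had 10701 to 10769 genes at 1 FPKM or more, and a GTMut library had 11295 to 11391. The mean difference was 609.5 genes (exact two-sided permutation p = 0.0286, the smallest possible), and it was 689.8 genes at a floor of 5 FPKM. FPKM values hold no totals, so absolute depth is unknown; relative depth read from the steps of low values overlapped, at 0.613 to 0.944 in WT and 0.556 to 1 in GTMut.

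Most genes differed in level, but most differences were small. Of the 12732 genes, 4928 (38.7%) were higher and 5086 (39.9%) lower in GTMut oocytes at an adjusted p under 0.05 (limma with Benjamini-Hochberg adjustment over all genes), 78.7% in either direction. The median log2 fold change was -0.04 and the mean was 0.23. Among the passing genes 62.5% moved by less than 2-fold. The balance of direction depended on size: 2508 genes (19.7%) rose and 1247 (9.79%) fell by 2-fold or more, 1169 (9.18%) rose and 160 (1.26%) fell by 4-fold or more, and 210 rose but only 6 fell past 16-fold. The libraries of the genotypes did not overlap for 73.9% of genes, 36.8% with GTMut higher and 37.1% with GTMut lower. Quantile normalization, which forces 1 distribution on all libraries, moved the median to -0.24 and gave 4089 genes higher and 6353 lower, so a small change is read against that shift. Under it 2051 genes rose and 2007 fell by 2-fold or more, so the excess of rises at that size was nearly lost. At 4-fold or more 945 rose and 260 fell. The rule's floor matters for low genes: 1298 genes reached 1 FPKM only in GTMut libraries and 726 only in WT libraries. Near that floor, 189 genes peaked between 1 and 1.1 FPKM and were kept, 46 of them higher and 38 lower, while 229 peaked between 0.9 and 1 FPKM and were left out.

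**Figure D1:**
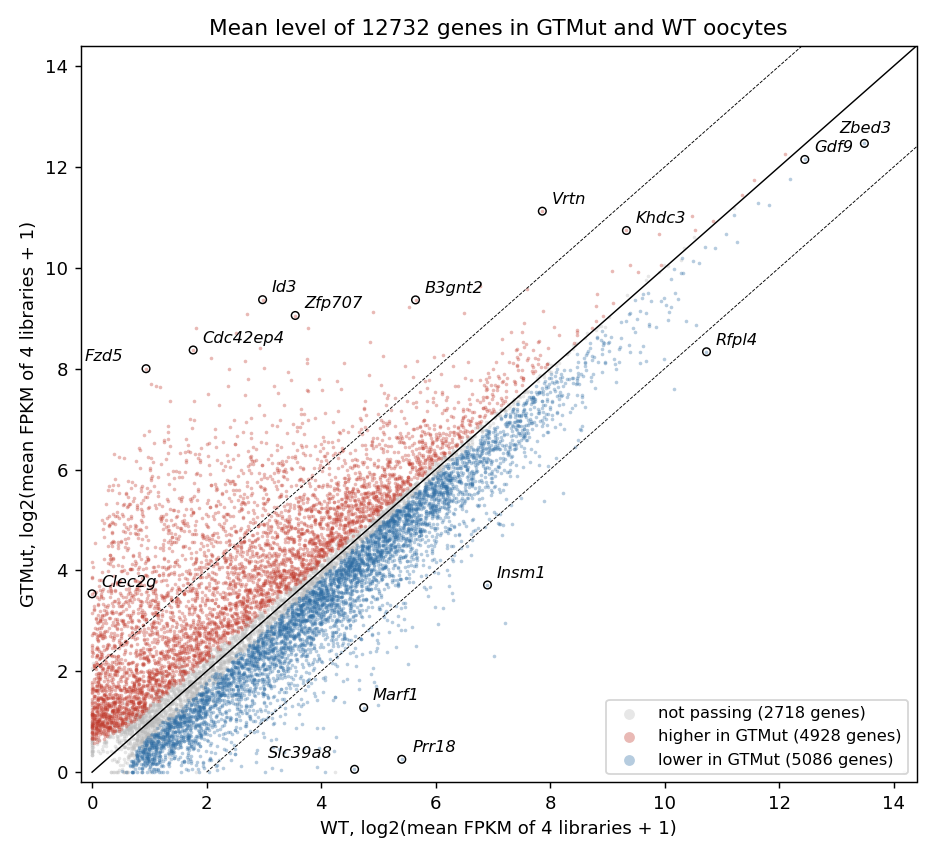
Mean level of each of the 12732 genes in GTMut (vertical) against WT oocytes (horizontal), both as log2(mean FPKM of 4 libraries + 1). Red genes are higher (4928) and blue genes lower (5086) in GTMut, grey genes (2718) did not pass, the solid line marks equal levels and the dashed lines 4-fold differences; the cloud reaches much farther above the upper dashed line than below the lower one.

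The most abundant transcripts tended to be lower in GTMut oocytes. Among the 734 genes with a mean of 100 FPKM or more over the 8 libraries (averaged as log2(FPKM + 1)), 26.7% were higher and 60.2% lower, with a median log2 fold change of -0.28. Among the 5145 genes from 10 to 100 FPKM, 37.7% were higher and 46.3% lower. From 1 to 10 FPKM the order turned, with 41.8% of 5425 genes higher and 34.9% lower, and below 1 FPKM 36.5% of 1428 genes were higher and 25.6% lower. After quantile normalization each class had more genes lower than higher, with 26.9% higher and 35.9% lower below 1 FPKM and 32.7% higher and 53.7% lower at 100 FPKM or more, so the turn was lost under that scaling. Median-ratio rescaling kept it, with 42.8% higher and 33.5% lower from 1 to 10 FPKM and 29% and 58% at 100 FPKM or more. Scaling to equal summed FPKM without small RNA genes kept it too, with 42.2% and 34.1% against 28.1% and 59.5% in these classes.

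A few oocyte transcripts accounted for the largest losses in FPKM. Zbed3, a BED-type zinc finger protein that binds Axin, read 11700, 11600, 11100 and 11500 FPKM in WT and 5800, 5820, 5390 and 5620 FPKM in GTMut. The log2 fold change was -1.02 ± 0.05 (limma adjusted p = 1.44e-10), although quantile normalization reversed it to 1.30. Neither median-ratio rescaling nor scaling to equal summed FPKM without small RNA genes reversed Zbed3 or any other passing named gene. Rfpl4, an oocyte-specific RING finger-like gene, fell from 1740, 1670, 1730 and 1650 FPKM to 338, 308, 316 and 326 FPKM. The log2 fold change was -2.40 ± 0.06. Of the 12 largest losses in FPKM only that of C86187 was steeper, from 1120 to 1240 FPKM in WT to 185 to 213 FPKM in GTMut (-2.57 ± 0.07). Oog3, an oogenesin of the PRAME family, fell from 1060, 998, 1050 and 958 FPKM to 300, 303, 266 and 297 FPKM. The oocyte homeobox genes Obox1 and Obox2, which share exonic bases and may share reads, had log2 fold changes of -1.43 ± 0.05 and -1.69 ± 0.04. Mphosph6, a cofactor of the RNA exosome, fell from 1060 to 1100 FPKM in WT to 533 to 588 FPKM in GTMut. Smaller falls were those of H1foo, the oocyte linker histone (-0.40 ± 0.04), Nlrp14, an NLRP protein of germ cells (-0.50 ± 0.04), and Bcl2l10, an anti-apoptotic Bcl2 relative (-0.58 ± 0.04, not passing after quantile normalization). Gdf9, the oocyte growth factor that acts on granulosa cells, had a log2 fold change of -0.30 ± 0.03 and Spin1, a reader of histone H3 methylation, one of -0.34 ± 0.04. Under quantile normalization Gdf9 turned to 0.14 and Spin1 to 0.06.

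The 12 genes with the largest gains in FPKM started from very different wildtype levels, with WT means from 5.49 FPKM (Tex19.2) to 1420 FPKM (Ccno). Vrtn, a nuclear protein known from the control of vertebral number in pigs, read 218, 223, 237 and 250 FPKM in WT and 2190, 2240, 2210 and 2300 FPKM in GTMut. The log2 fold change was 3.26 ± 0.05 (limma adjusted p = 5.98e-16). Noto, a homeobox factor of the notochord in the mouse embryo, rose from 107, 103, 112 and 111 FPKM to 817, 763, 764 and 833 FPKM. B3gnt2, an enzyme that extends poly-N-acetyllactosamine chains on glycoproteins, rose from 53.5, 43.6, 48.3 and 51.6 FPKM to 665, 648, 671 and 649 FPKM. Both groups were tight, with log2 fold changes of 2.86 ± 0.04 for Noto and 3.72 ± 0.05 for B3gnt2. Tspan3, a membrane tetraspanin, had 26.8 to 33.7 FPKM in WT and 545 to 574 FPKM in GTMut. Zfp707, a zinc finger gene, had 9.42 to 11.7 FPKM in WT and 521 to 549 FPKM in GTMut. Tex19.2, a germ cell gene with a close paralog that may share its reads, rose to 513 to 595 FPKM in GTMut, and Id3, described with its pathway, was also among the 12. Dusp14, a phosphatase of MAP kinases, rose from 180 to 200 FPKM to 747 to 804 FPKM. Khdc3, whose protein belongs to the subcortical complex of maternal proteins, rose from 619 to 667 FPKM to 1640 to 1800 FPKM, a log2 fold change of 1.41 ± 0.04. Ccno, the cyclin O gene, was abundant in both genotypes and rose by 0.57 ± 0.03. Spata2, an adaptor of a deubiquitinase, also rose (3.69 ± 0.06) but shares exonic bases with Rnf114.

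**Figure D2:**
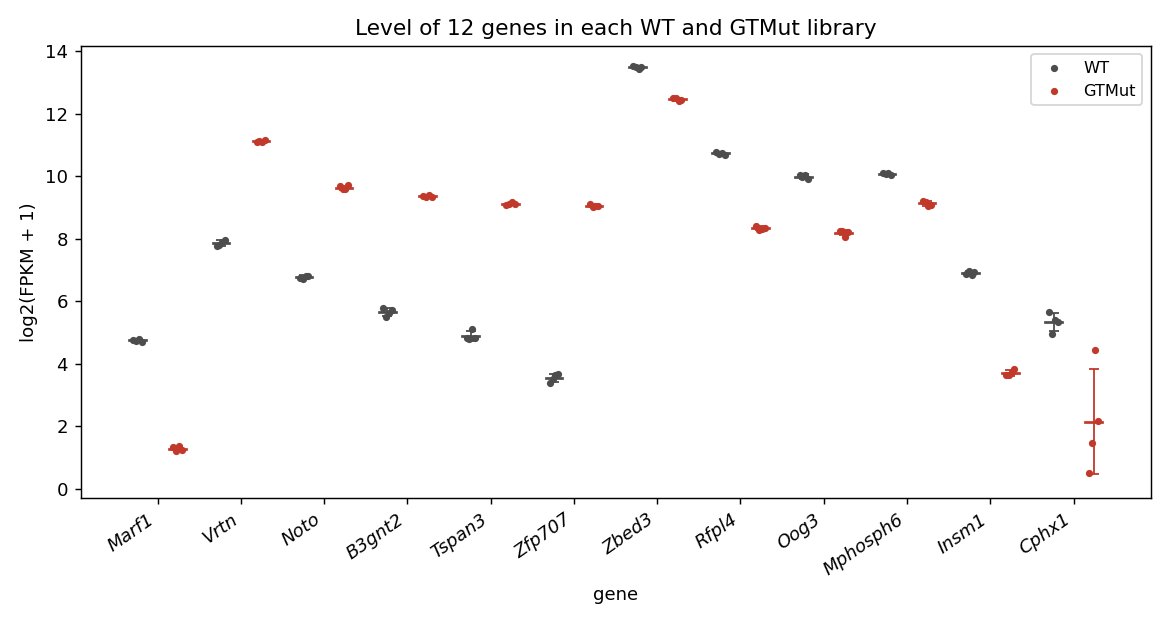
Level of 12 genes in each of the 4 WT (grey) and 4 GTMut (red) libraries, as log2(FPKM + 1); each point is 1 library, the bar the mean and the whisker the SD. Genes of largest change were named only where the genotypes did not overlap, so the lack of overlap here follows from that choice. The widest spread is that of Cphx1 in GTMut, from 0.415 to 20.6 FPKM.

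The steepest gains in log2 fold change included genes close to absent in wildtype oocytes. Others among the steepest, such as Id3 and Tex19.2, started from higher wildtype levels. Atxn7l3, a subunit of the deubiquitinating module of the SAGA coactivator, read 0.367, 0.32, 0.273 and 0.271 FPKM in WT and 71.4, 83.1, 80 and 77.8 FPKM in GTMut. Chchd4, the receptor for oxidative protein import between the mitochondrial membranes, rose from 0.36 to 1.08 FPKM to 79.3 to 86.7 FPKM. Eid2, an inhibitor of p300-dependent transcription, rose from 0.601 to 1.19 FPKM to 98.4 to 107 FPKM. Each of these genes gained more than 5 log2 units, and the libraries within a genotype stayed close. Pkdcc, a secreted tyrosine kinase, rose by 5.67 ± 0.10 and Zfp622, a factor of ribosomal subunit maturation, by 6.02 ± 0.13.

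Among the largest losses in log2 fold change, those of Prr18 (-5.15 ± 0.10) and Slc39a8, described below, were steeper than the examples given here. Insm1, a zinc finger factor of endocrine and neural differentiation, read 115, 125, 113 and 120 FPKM in WT and 11.5, 11.4, 12.2 and 13.1 FPKM in GTMut. That is a log2 fold change of -3.20 ± 0.08 (limma adjusted p = 2.16e-13). Cphx1, an oocyte homeobox gene, read 49.2, 29.7, 41.2 and 39.1 FPKM in WT and 0.415, 1.74, 20.6 and 3.52 FPKM in GTMut. GTMut replicate 3 stood far above the other GTMut libraries, yet below every WT library, which the naming rule required (-3.19 ± 0.74, limma adjusted p = 0.00132). Klhdc1, a kelch-domain gene, fell from 28.5 to 31.8 FPKM to 1.86 to 2.67 FPKM. Psg17, of the pregnancy-specific glycoproteins, fell from 11 to 13.4 FPKM to 0.279 to 0.568 FPKM. Fam124a fell from 7.78 to 9.53 FPKM to 0 to 0.0777 FPKM.

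Some genes were listed in 1 genotype only. In the 4 WT libraries 12 genes were listed at 0 while all 4 GTMut libraries held at least 1 FPKM, and 4 genes showed the opposite pattern. Clec2g, a C-type lectin-related gene, read 10.7, 10.1, 12.4 and 9.36 FPKM in GTMut. Pou3f4, a POU-domain factor of neural development, read 1.7 to 2.95 FPKM and Rln1, which encodes the hormone relaxin, 1.72 to 3.14 FPKM in GTMut. On the opposite side, Lrrc52, a subunit of a potassium channel of mouse sperm, held 2.08 to 4.24 FPKM in the WT libraries, and all GTMut libraries listed it at 0. With a limit of 0.1 FPKM in place of 0, the counts were 48 and 11. No fold change is given for a gene listed at 0.

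Some abundant genes did not pass the test. Of the genes above 100 FPKM in both genotypes that did not pass, the 5 with the smallest fold change were Cdk2ap2, Wdtc1, Tceb1, Bcl2l1 and Hmgn1, chosen for that, of which Tceb1 (0.26) and Hmgn1 (0.18) passed under quantile normalization. Bcl2l1, the anti-apoptotic Bcl-x gene, read 184, 188, 178 and 192 FPKM in WT and 183, 192, 190 and 180 FPKM in GTMut. Bmp15, an oocyte growth factor related to Gdf9, read 2290 to 2400 FPKM in WT and 2250 to 2360 FPKM in GTMut and did not pass, although quantile normalization gave it 0.24.

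Oocyte genes were abundant and markers of other ovarian cells were low. The zona gene Zp3 read 752 to 803 FPKM in WT and 638 to 710 FPKM in GTMut (-0.21 ± 0.04, turning to 0.18 under quantile normalization). The oocyte genes Ooep, of the subcortical maternal complex (-0.84 ± 0.05), and Oosp1, an oocyte-secreted protein (-1.07 ± 0.05), fell further. The 18 granulosa and cumulus markers summed to 21.4 to 25.9 FPKM in WT and 21.8 to 25.4 FPKM in GTMut, with 10 tested, 3 higher and 5 lower. Of the 10 tested, 5 reached the floor of 1 FPKM only in WT libraries and 2 only in GTMut libraries, so the floor tilts these counts. Among these markers Cyp19a1, the aromatase of granulosa cells, fell from 10.5 to 12.8 FPKM to 4.29 to 5.42 FPKM, and Kitl, the ligand of the Kit receptor, rose from 1.95 to 2.94 FPKM to 10.2 to 13.4 FPKM. The 21 markers of other ovarian cells summed to 35.2 to 38.3 FPKM in WT and 25.7 to 30.6 FPKM in GTMut, with 8 tested, 2 higher and 2 lower (1 and 5 under quantile normalization). Most of that difference was in Pecam1, an adhesion molecule of vessel walls, at 19.3 to 21.9 FPKM in WT and 10.9 to 11.7 FPKM in GTMut. Lhcgr, the luteinizing hormone receptor of theca and granulosa cells, was listed at 0 in all 8 libraries. Tnfaip6, Ptx3 and Ptprc were listed at 0 in WT and stayed at or under 0.146 FPKM in GTMut. The part of such cells in the results below was not tested, and in bulk RNA fewer cells of a type and less RNA per cell cannot be told apart.

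Gene lists are described by the number of members higher and lower, to be read against 38.7% and 39.9% over all genes. Counts under quantile normalization are to be read against 4089 higher and 6353 lower of all 12732 genes. A member that reached the floor in GTMut libraries alone tilts these counts toward rises, although it need not pass. Such genes were 7 of 40 in the Wnt pathway, 37 of 296 Zfp genes, 22 of 198 Slc genes and 8 of 48 Rab genes. They were 14 of 19 in the 2-cell families, and at most 4 in any other list. Members that reached the floor in WT libraries alone tilt the counts toward falls. These were 7 of the Zfp genes, 12 of the Slc genes and 5 of the 10 tested granulosa and cumulus markers, and at most 4 in any other list. The Wnt pathway, in which secreted ligands act through Frizzled receptors to stabilize beta-catenin, had 69 listed genes, 40 of them tested, 21 higher and 14 lower. All 5 tested members on the ligand side rose, but the other 16 of that group stayed under the floor. Wnt9a read 0.825, 0.924, 1.3 and 1.62 FPKM in WT and 196, 215, 201 and 196 FPKM in GTMut (6.56 ± 0.10). The others, Wnt7a (1.90 ± 0.09), Wnt8a (1.92 ± 0.20), Wnt5a (1.05 ± 0.11) and Wls, the ligand carrier (1.92 ± 0.08), stayed under 25 FPKM on average. Of 13 receptors 8 rose and 3 fell. Fzd5 read 0.664, 0.949, 1.04 and 1.03 FPKM in WT and 256, 262, 251 and 251 FPKM in GTMut, the largest log2 fold change of any named gene at 7.06 ± 0.07. The coreceptors Lrp5 (-1.17 ± 0.05) and Lrp6 (-1.45 ± 0.08) fell. Of 18 core members 8 rose and 8 fell. Tcf7l2, a transcription factor that binds beta-catenin, rose from 0.414 to 0.797 FPKM to 8.83 to 9.56 FPKM. Apc, part of the complex that degrades beta-catenin, fell from 32.2 to 35 FPKM to 10.7 to 11.9 FPKM. Of the 4 tested inhibitors Dkk1, Dkk4 and Nkd1 fell and Dkk3 did not pass.

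The TGF-beta and BMP pathway, through which secreted ligands activate Smad factors, had 30 tested members with 15 higher and 11 lower. Tgif1, a corepressor of Smad factors, read 3.81, 4.83, 4.32 and 3.82 FPKM in WT and 211, 200, 198 and 200 FPKM in GTMut. Its paralog Tgif2 went the other way, from 75.5 to 82.5 FPKM to 27.1 to 29.4 FPKM. The ligand gene Tgfb2 fell (-1.65 ± 0.05), as did the receptor gene Bmpr1b (-0.79 ± 0.04). All 4 Id genes, inhibitors of basic helix-loop-helix factors and known BMP targets, rose. Id2 read 1.23, 1.52, 1.36 and 1.96 FPKM in WT and 90.2, 97.5, 107 and 92.4 FPKM in GTMut. Id3 was far higher, at 627 to 709 FPKM in GTMut against 5.22 to 8.35 FPKM in WT, while Id1 (2.70 ± 0.16) and Id4 (1.63 ± 0.13, exonic overlap with another gene) had mean levels of 24.3 and 3.65 FPKM in GTMut.

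In Notch signalling a ligand on 1 cell triggers the cleavage of the receptor on another, which frees a fragment that acts in the nucleus. Of 21 tested members 7 were higher and 8 lower (9 higher and 8 lower after median-ratio rescaling), close to the shares over all genes. The ligand gene Jag1 read 45.4, 43, 45.2 and 39.4 FPKM in WT and 6.59, 6.26, 5.55 and 5.87 FPKM in GTMut (-2.65 ± 0.08). Psen2, a catalytic subunit of gamma-secretase, fell by 1.77 ± 0.10 on the log2 scale. Of the nuclear members, Rbpj, the DNA-binding partner (1.38 ± 0.06), Maml1, its coactivator (2.19 ± 0.07) and Hes6 (1.07 ± 0.05) rose, and Hey1 and Hey2 did not pass.

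Genes of the actin cytoskeleton, which moves and anchors the meiotic spindle, also split. Of 16 tested effectors of Cdc42 and related signalling proteins that organise actin, 3 were higher and 11 lower. Cdc42ep4, a Cdc42-binding effector, read 2.01, 2.34, 2.35 and 2.89 FPKM in WT and 320, 329, 332 and 338 FPKM in GTMut. The kinase gene Pak2 rose from 1.12 to 1.44 FPKM to 55 to 58.7 FPKM, and Rhov, an atypical GTPase, from 0.0829 to 0.445 FPKM to 47.6 to 55 FPKM. The falls named here were smaller, as in Wasl, an activator of the Arp2/3 complex (-0.91 ± 0.06), Rock1, a kinase that drives actomyosin contraction (-0.94 ± 0.06), and Pard6b, a polarity protein (-0.75 ± 0.04). Of the 33 genes tested in the list of actin machinery, 12 were higher and 16 lower. Myo10, a motor of filopodia, including those through which granulosa cells reach the oocyte, read 21.3, 20.4, 20.9 and 18 FPKM in WT and 1.83, 1.59, 1.32 and 1.69 FPKM in GTMut. Spire1, a nucleator of the oocyte's cytoplasmic actin mesh, fell by 1.46 ± 0.04 and its partner Fmn2 by 1.16 ± 0.06. Actr2, a core subunit of the Arp2/3 complex, fell by 1.93 ± 0.07, whereas the subunit Arpc5 (1.72 ± 0.07) and cortactin, Cttn (1.98 ± 0.06), rose.

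**Figure D3:**
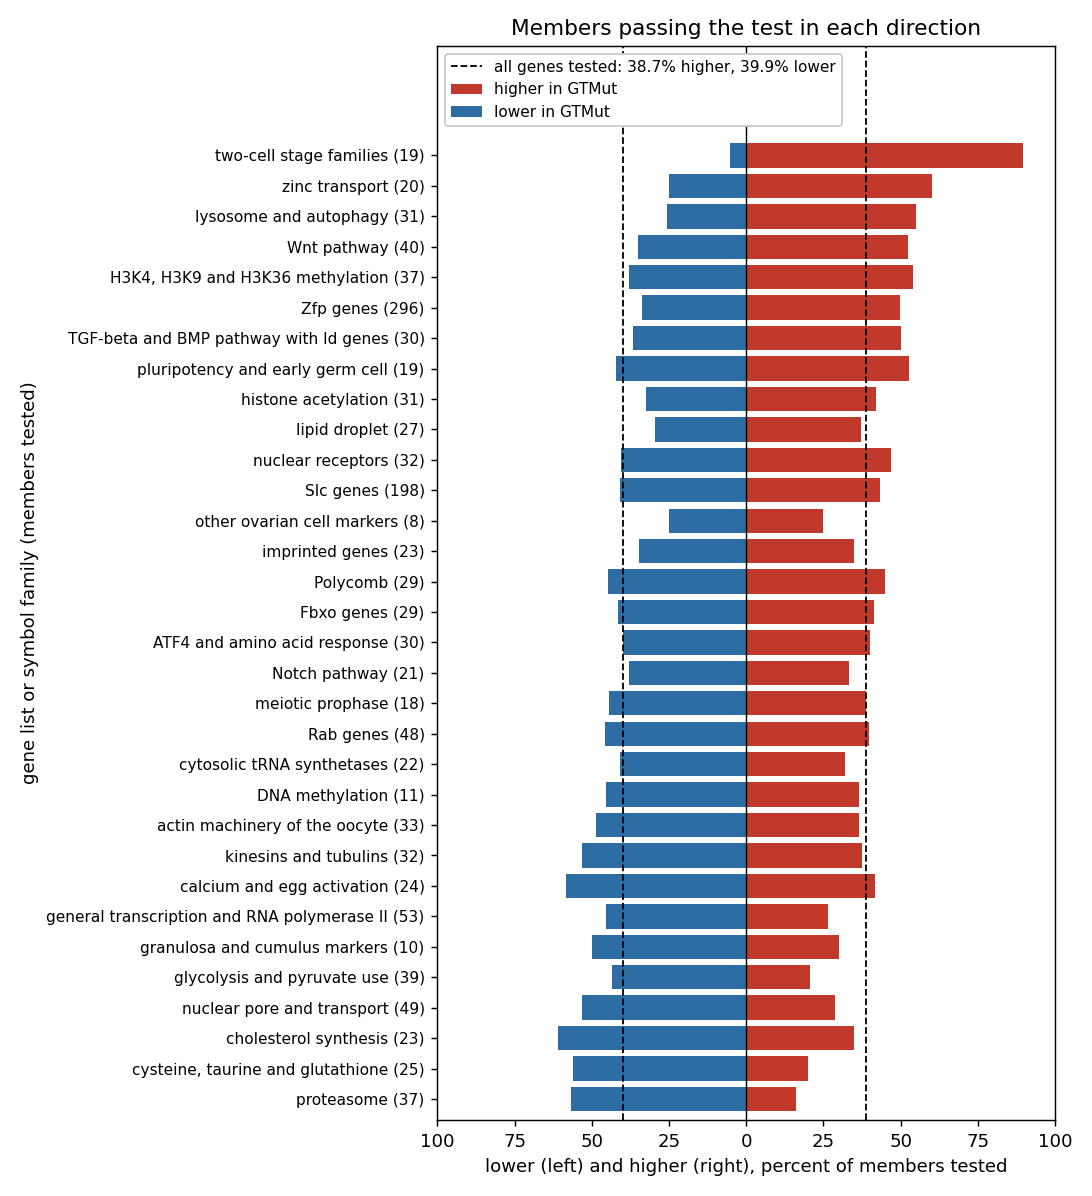
Percent of the tested members of each gene list or symbol family shown that were higher (red, right) or lower (blue, left) in GTMut oocytes, with the number tested in parentheses; dashed lines mark 38.7% and 39.9%, the shares over all 12732 genes. The 2-cell stage families lie farthest to the right (89.5% higher) and the proteasome at the bottom (16.2% higher, 56.8% lower).

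Genes of the 2-cell embryo, when the mouse genome is first switched on, were mostly higher but low. Of 19 tested members of these families 17 were higher and 1 lower. However, 14 of the 19 reached the floor only in GTMut libraries, so the floor itself tilts these counts toward rises. These families also hold near-identical copies among which reads may be divided. Usp17lc, a deubiquitinase of this group, was listed at 0 in 3 WT libraries with 0.107 FPKM in the fourth, and read 7.93, 11.7, 8.78 and 7.09 FPKM in GTMut. The summed level of the 19 genes was 71.2 to 86.1 FPKM in WT and 78.6 to 156 FPKM in GTMut, so these ranges overlapped. Tcstv1 was the exception, falling from 51.2 to 60.3 FPKM to 20.4 to 26.2 FPKM. Pluripotency and early germ cell genes had 10 of 19 higher and 8 lower. The orphan receptor genes Nr5a2 (25.6 to 27.4 against 128 to 140 FPKM) and Esrrb (23.8 to 28.2 against 143 to 151 FPKM) rose, as did Dazl, an RNA-binding regulator of germ cell translation (181 to 190 against 449 to 501 FPKM). Kit, the receptor for stem cell factor, fell from 96 to 103 FPKM to 25.4 to 28.3 FPKM. Sall4 (-1.30 ± 0.06) and Lin28a, which blocks let-7 maturation (-1.36 ± 0.06), fell too. Meiotic prophase genes, used earlier in fetal oocytes, had 7 of 18 higher and 8 lower, with Mlh3, a crossover factor, rising by 2.11 ± 0.09 and Sycp2, of the chromosome axis, falling by 1.60 ± 0.10.

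Chromatin genes moved in both directions, and for Polycomb the counts of the complexes differed, a difference that was not tested. PRC2, which methylates lysine 27 of histone H3, had 2 of 11 tested members higher and 7 lower, and PRC1, which ubiquitinates histone H2A, had 11 of 18 higher and 6 lower. Ezh2, the catalytic subunit of PRC2, fell from 61.7 to 65.8 FPKM to 23.3 to 26 FPKM, with Suz12 (-1.01 ± 0.05) and Eed (-0.84 ± 0.05) alongside. Cbx8, a chromodomain subunit of PRC1, read 2.35, 2.18, 2.44 and 2.16 FPKM in WT and 122, 123, 134 and 129 FPKM in GTMut. Cbx7 (3.77 ± 0.07) and Ring1, an E3 ligase of PRC1 (3.58 ± 0.10), rose as well, while Bmi1 fell (-0.89 ± 0.04). The list of H3K4, H3K9 and H3K36 methylation genes had 20 of 37 higher and 14 lower. Nsd1, which methylates H3K36, fell from 32.5 to 36.7 FPKM to 7.75 to 8.57 FPKM, and Rbbp5, a core subunit of H3K4 methyltransferases, rose from 30.9 to 34.9 FPKM to 95 to 97.3 FPKM. Histone acetylation genes had 13 of 31 higher and 10 lower (12 and 14 under quantile normalization). Sirt1, an NAD-dependent deacetylase, rose from 25 to 29.1 FPKM to 149 to 170 FPKM, and Hdac11 from 0.561 to 1.61 FPKM to 59.1 to 66.3 FPKM. Of the DNA methylation genes 4 of 11 were higher and 5 lower. Tet3, the oocyte's 5-methylcytosine oxidase, fell by 1.18 ± 0.05, and Dnmt3a, the de novo methyltransferase, by 0.29 ± 0.05.

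General transcription genes were lower more often than higher, at 24 and 14 of 53. The named genes of this list with the largest changes rose. Hexim1, which inhibits the elongation kinase P-TEFb, read 0.46, 0.351, 0.299 and 0.346 FPKM in WT and 53.3, 46.8, 48.7 and 53.3 FPKM in GTMut. Cdk9, the kinase itself, rose from 5.22 to 5.89 FPKM to 48.5 to 56.3 FPKM. Gtf2e1, a subunit of TFIIE, rose by 4.40 ± 0.07, and the TFIID subunit gene Taf3 fell by 1.44 ± 0.05. Nuclear receptors and coregulators had 15 of 32 higher and 13 lower (14 and 17 under quantile normalization). Nr1d2, a repressor in the circadian clock, rose by 2.82 ± 0.06 and Rora, which binds the same elements, fell by 1.27 ± 0.10. The 23 tested imprinted genes had 8 higher and 8 lower (7 and 14 under quantile normalization). Dio3, a deiodinase that inactivates thyroid hormone, read 1.63 to 3.78 FPKM in WT and 435 to 459 FPKM in GTMut (7.02 ± 0.13). Grb10 was also higher (1.04 ± 0.08) and Igf2r lower (-1.13 ± 0.08).

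Zinc finger genes with a Zfp symbol were the largest family by members tested, with 147 of 296 higher and 100 lower (132 and 130 under quantile normalization). Zfp36l2, which destabilizes messages with AU-rich elements, read 6.12, 6.92, 6.19 and 7.16 FPKM in WT and 328, 380, 335 and 320 FPKM in GTMut. Zfp644, which recruits H3K9 methyltransferases, rose by 4.56 ± 0.05, and Zfp946 fell by 2.32 ± 0.09.

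Among metabolic lists, losses outnumbered gains for thiol, sterol and sugar metabolism. Cysteine, taurine and glutathione genes had 5 of 25 higher and 14 lower. Gsta4, a glutathione transferase for lipid aldehydes, read 31.2, 27.1, 25.3 and 30.1 FPKM in WT and 3.08, 3.02, 2.2 and 3.06 FPKM in GTMut. Slc6a6, the taurine transporter, fell by 1.83 ± 0.08, whereas Gclc, which starts glutathione synthesis, rose from 5.49 to 5.85 FPKM to 25.7 to 29.9 FPKM. Cholesterol synthesis genes had 8 of 23 higher and 14 lower. Insig1, which holds the sterol sensor in the endoplasmic reticulum, fell from 136 to 151 FPKM to 45.6 to 49.7 FPKM, while its paralog Insig2 rose from 1.75 to 3.5 FPKM to 16 to 19.4 FPKM. Glycolysis and pyruvate genes had 8 of 39 higher and 17 lower (4 and 23 under quantile normalization). Pgam1, a glycolytic mutase, rose by 3.39 ± 0.06 and Slc16a1, a monocarboxylate transporter, by 2.64 ± 0.07, and Pkm, pyruvate kinase, fell by 0.74 ± 0.04. Lipid droplet genes had 10 of 27 higher and 8 lower (8 and 10 under quantile normalization), with Plin2, a droplet coat protein, at 2.45 to 3.7 FPKM in WT and 9.2 to 12.6 FPKM in GTMut. The ATF4 and amino acid response list had 12 of 30 higher and 12 lower, and the cytosolic tRNA synthetases 7 of 22 higher and 9 lower (3 and 14 under quantile normalization).

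Zinc transporters and buffers had 12 of 20 tested members higher and 5 lower. Oocytes accumulate zinc to hold their arrest and release it at activation. Slc30a1, the zinc exporter of the plasma membrane, read 19.3, 19, 20.5 and 20.6 FPKM in WT and 110, 112, 110 and 107 FPKM in GTMut. Slc39a3, an importer, rose by 2.96 ± 0.06, and Slc39a10, another importer and more abundant in WT oocytes, fell from 149 to 163 FPKM to 75.3 to 83.5 FPKM. Slc39a8, a zinc and manganese importer, was close to lost, at 16.4, 24.8, 27.9 and 22.8 FPKM in WT and 0.0416, 0.0819, 0 and 0.0353 FPKM in GTMut. Solute carrier genes as a whole had 86 of 198 higher and 81 lower (66 and 97 under quantile normalization), so the family lay near the background.

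Of the protein turnover lists, lysosome and autophagy genes had 17 of 31 higher and 8 lower (15 and 13 under quantile normalization), and proteasome genes 6 of 37 higher and 21 lower, a difference that was not tested. Tfeb, a factor that switches on lysosomal genes, was listed at 0 in 3 WT libraries with 0.0889 FPKM in the fourth, and read 7.53, 8.91, 9.03 and 8.32 FPKM in GTMut. Ctsl, a lysosomal protease, rose from 0.454 to 1.25 FPKM to 18.4 to 24 FPKM, and Npc1, the lysosomal cholesterol exporter, fell by 2.13 ± 0.07. In the proteasome the falls were shallow, none reaching 2-fold, and the catalytic subunit gene Psmb5 rose from 40.6 to 44.2 FPKM to 120 to 140 FPKM. Nuclear pore and transport genes had 14 of 49 higher and 26 lower. Kpna4, an importin alpha, rose from 0.83 to 1.25 FPKM to 61.2 to 66 FPKM, and Ipo8, an importin beta, fell from 94.2 to 101 FPKM to 29.2 to 33 FPKM. Rab GTPases had 19 of 48 higher and 22 lower, Rab5a of early endosomes rising by 3.40 ± 0.07 and Rab7 of late endosomes falling by 1.22 ± 0.05. F-box genes, the substrate adaptors of ubiquitin ligases, had 12 of 29 higher and 12 lower (8 and 13 under quantile normalization), Fbxo45 rising by 4.13 ± 0.08.

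Calcium release drives egg activation, and all 24 tested genes of that list passed, 10 higher and 14 lower. The receptors for inositol trisphosphate moved apart. Itpr2 read 13.1, 12.8, 12.4 and 11.9 FPKM in WT and 190, 190, 188 and 187 FPKM in GTMut (3.81 ± 0.04), and Itpr1, the type known to act in mouse eggs, read 11.9 to 12.3 FPKM in WT and 4.88 to 5.15 FPKM in GTMut (-1.11 ± 0.06). Stim1, the calcium sensor of the endoplasmic reticulum, rose by 3.14 ± 0.07, and Atp2a2, the calcium pump, fell by 0.64 ± 0.03. Kinesins and tubulins had 12 of 32 higher and 17 lower, with Tuba1b rising from 77.6 to 86.1 FPKM to 193 to 205 FPKM and Kif23, a motor of the central spindle, falling by 1.41 ± 0.05.

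Genes next to Marf1 on chromosome 16 were lower more often than higher. Of the 14 tested genes that lie within 1 Mb, 2 were higher and 8 lower, with a median log2 fold change of -0.30 (6 lower after median-ratio rescaling). These 14 genes were 14.3% higher and 57.1% lower, against 38.7% and 39.9% over all genes, whose median was -0.04. Over chromosome 16 the shares were 37.1% and 35.6%. From 1 to 5 Mb 27 of 62 genes were higher and 18 lower, and from 5 to 20 Mb 52 of 129 were higher and 39 lower. Rrn3, an initiation factor of RNA polymerase I, read 37, 35.6, 36.7 and 37.9 FPKM in WT and 14.6, 11, 12.5 and 13.8 FPKM in GTMut. Myh11, a smooth muscle myosin, fell by 1.41 ± 0.07. Parn, a poly(A)-specific ribonuclease, read 13.9 to 17.4 FPKM in WT and 10.6 to 12.1 FPKM in GTMut (-0.36 ± 0.07, limma adjusted p = 0.000315). Abcc1, a multidrug transporter in the same interval, did not pass (0.01 ± 0.06), although it was lower under quantile normalization (-0.32).

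Genes that moved strongly in the 2 directions had promoters of different composition. Promoter windows of 300 bases (250 before to 50 after a RefSeq start, GRCm38.p6) were found for 10187 of the 12732 genes. The median number of CpG dinucleotides in a window was 23 for the 943 promoters of genes that rose 4-fold or more, 11 for the 134 of genes that fell 4-fold or more, 20 for all tested genes and 7 for all 27025 promoters of the table. The motif GGGCGG, which holds a CpG and was searched on both strands, was in 68.1% of the first class, 51.5% of the second, 62.4% of all tested genes and 35.9% of all promoters. The motif TATAAA, which overlaps no letters of GGGCGG, was in 7.74%, 14.2%, 7.76% and 14.2% of these, both strands again. Annotated 3′ untranslated regions (GENCODE M21) had a median of 1424 bases in the first class, 1078 in the second and 1139 over all tested genes. The median was 1434 bases for genes that rose 2-fold to 4-fold, 1306 for genes that fell 2-fold to 4-fold and 780.5 for genes not passing. The promoters of 4 genes show the range, with CpG in capitals, 5′ to 3′ on the gene's strand: Fzd5 and Id3 among the steepest rises, Slc39a8 and Defb48 among the steepest falls.

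Fzd5: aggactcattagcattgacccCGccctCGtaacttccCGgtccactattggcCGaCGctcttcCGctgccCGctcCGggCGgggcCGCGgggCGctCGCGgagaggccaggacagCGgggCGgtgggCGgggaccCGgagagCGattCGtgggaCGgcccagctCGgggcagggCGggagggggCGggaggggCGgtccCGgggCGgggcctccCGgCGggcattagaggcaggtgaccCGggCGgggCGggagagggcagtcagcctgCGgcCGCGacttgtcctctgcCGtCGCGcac
Id3: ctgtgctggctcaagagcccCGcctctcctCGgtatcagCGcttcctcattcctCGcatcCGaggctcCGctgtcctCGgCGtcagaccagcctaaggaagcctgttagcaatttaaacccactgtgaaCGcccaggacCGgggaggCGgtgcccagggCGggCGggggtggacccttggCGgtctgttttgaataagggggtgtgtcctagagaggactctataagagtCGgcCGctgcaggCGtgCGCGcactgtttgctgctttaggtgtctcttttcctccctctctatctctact
Slc39a8: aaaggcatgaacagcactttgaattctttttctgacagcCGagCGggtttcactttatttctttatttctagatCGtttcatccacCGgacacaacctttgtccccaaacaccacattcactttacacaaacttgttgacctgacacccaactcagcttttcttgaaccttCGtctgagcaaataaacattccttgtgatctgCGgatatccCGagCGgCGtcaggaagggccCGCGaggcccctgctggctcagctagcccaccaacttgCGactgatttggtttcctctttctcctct
Defb48: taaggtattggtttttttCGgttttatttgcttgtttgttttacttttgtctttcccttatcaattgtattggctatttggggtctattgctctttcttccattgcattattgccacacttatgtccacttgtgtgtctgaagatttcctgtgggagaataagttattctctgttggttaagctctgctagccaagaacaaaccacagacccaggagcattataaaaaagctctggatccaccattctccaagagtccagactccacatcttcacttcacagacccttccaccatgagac

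The Fzd5 window lies at chr1:64737701-64738000 on the minus strand and holds 38 CpG, and the Id3 window at chr4:136143572-136143871 on the plus strand holds 19. The Slc39a8 window, at chr3:135825029-135825328 on the plus strand, holds 12 CpG, and the Defb48 window, at chr14:62984461-62984760 on the minus strand, holds 1. Beside these, Defb48, a beta-defensin gene, held 11.8 to 18.8 FPKM in the WT libraries, and all 4 GTMut libraries listed it at 0. These compositions are descriptions, and how level and gene class move with them was not tested.

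**Figure D4:**
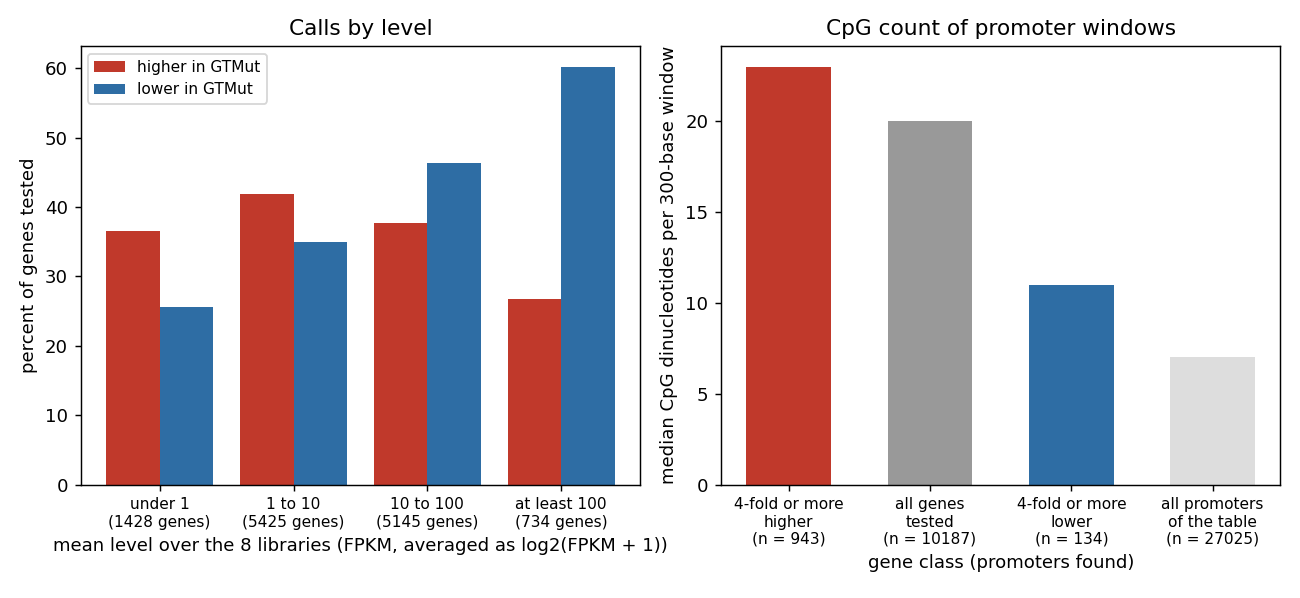
Left, percent of tested genes higher (red) or lower (blue) in GTMut oocytes by class of mean FPKM over the 8 libraries, from 36.5% higher below 1 FPKM to 26.7% higher and 60.2% lower at 100 FPKM or more. Right, median CpG dinucleotides in the 300-base promoter windows of 4 gene classes, highest (23) for genes up 4-fold or more and 11 for genes down 4-fold or more.

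Many GTMut levels differed from those of the other Marf1 mutant. GTMut and D272Mut oocytes differed for 5069 of the 12732 genes (39.8%), 2630 (20.7%) higher and 2439 (19.2%) lower in GTMut (limma adjusted p under 0.05). Marf1 itself had 53, 54.5, 52 and 53 FPKM in D272Mut, above both other genotypes. Prr18, a proline-rich gene, read 39, 43.7, 38.6 and 44.7 FPKM in WT, 0.218, 0.171, 0.2 and 0.185 FPKM in GTMut and 24.1, 34.4, 34.8 and 29.1 FPKM in D272Mut. Of the 3 genotypes GTMut alone was near 0 (GTMut minus D272Mut -4.71 ± 0.10, limma adjusted p = 1.48e-12). Bfar, an anti-apoptotic membrane protein whose gene lies within 1 Mb of Marf1 and overlaps 3110001I22Rik, read 16.7 to 19.7 FPKM in WT, 4.74 to 6.37 FPKM in GTMut and 91.4 to 98.5 FPKM in D272Mut. It was lower than WT in GTMut and lay above WT in D272Mut. Rab3b, a GTPase of regulated secretion, read 27.8 to 29.8 FPKM in WT, 5.27 to 6.43 FPKM in GTMut and 20.5 to 24.2 FPKM in D272Mut (difference -1.81 ± 0.07). On the higher side, Lancl3, an X-linked gene, was listed at 0 in all WT libraries, read 5.52, 4.1, 4.84 and 4.41 FPKM in GTMut and was listed at 0 in 3 D272Mut libraries with 0.0361 FPKM in the fourth. Plin2 in D272Mut, at 2.68 to 3.46 FPKM, lay within the range of WT, and the difference between the mutants was 1.49 ± 0.11. Kpna1, an importin alpha, read 0.123 to 0.287 FPKM in WT, 32.2 to 33.5 FPKM in GTMut and 6.62 to 9.1 FPKM in D272Mut, so it was raised less in D272Mut (difference 1.92 ± 0.09). Nr2c2 (1.73 ± 0.06, overlaps Mrps25), Hexim1 (1.36 ± 0.09) and Fzd5 (1.13 ± 0.07) were also higher in GTMut than in D272Mut. Some large gains and losses did not separate the mutants: Vrtn (0.03 ± 0.05), Id3 (-0.05 ± 0.10), Oog3 (-0.02 ± 0.06) and Zbed3 (-0.09 ± 0.05) did not pass. Others did separate them, as for Atxn7l3 (1.22 ± 0.07), Wnt9a (0.53 ± 0.10), Dio3 (0.52 ± 0.13), Rfpl4 (-0.87 ± 0.06) and Obox2 (-0.85 ± 0.04). Each value is GTMut minus D272Mut with its standard error, and these genes are examples.

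**Figure D5:**
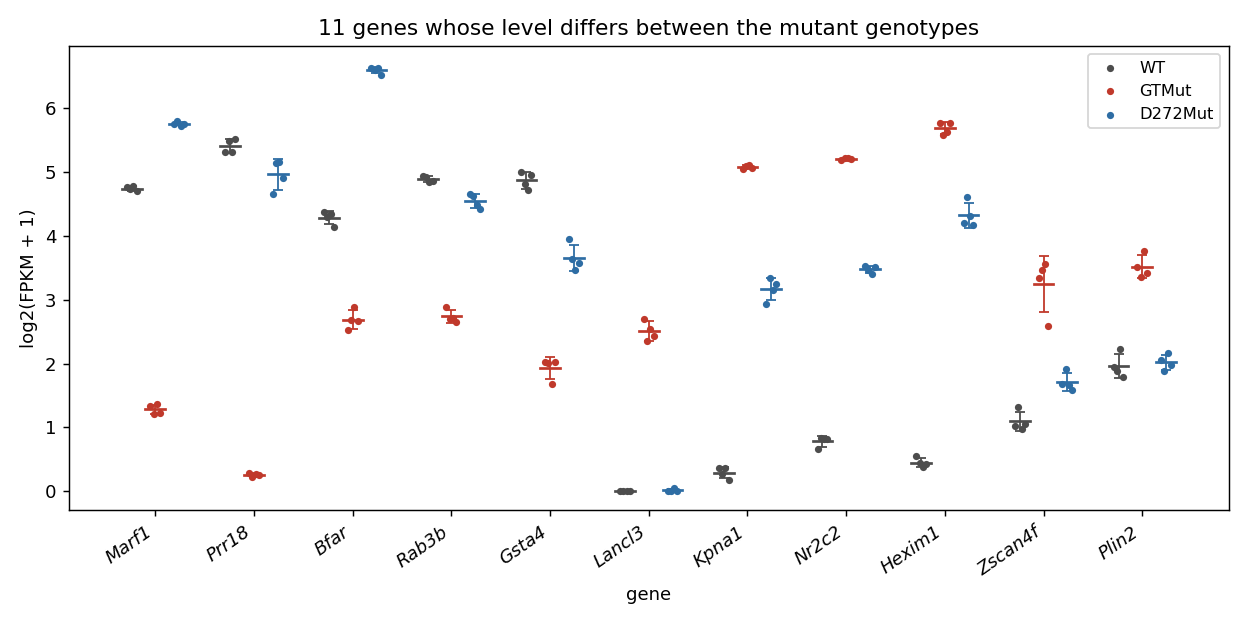
Level of 11 genes in each library of WT (grey), GTMut (red) and D272Mut (blue), as log2(FPKM + 1), with the mean as a bar and the SD as a whisker (4 libraries each). The first 5 genes are lower and the last 6 higher in GTMut than in D272Mut, and Lancl3 is at or near 0 outside GTMut.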

How the data were processed

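Total RNA of 80 oocytes per library was sequenced with paired reads of 150 bp, per the design text. Per the submitters' processing notes, reads were aligned to mm10 with TopHat2 2.0.13 and the authors computed FPKM values with Cufflinks 2.2.1. The authors also deposited log2 ratios, p-values and q-values from cuffdiff, used only for comparison: by q-value under 0.05, 4514 of the genes were higher and 4458 lower in GTMut in that deposited table. The FPKM values as deposited are scaled to length and library size, so depth is not kept. Small RNA genes held 66.2% to 91.4% of the summed FPKM of a GTMut or WT library. The header lacks its first name, so columns were read by position.

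Values were analysed as log2(FPKM + 1). The fit used limma 3.58.1 (R 4.3.3, intensity trend) and all 12 libraries, leaving 9 residual degrees of freedom, on genes of at least 1 FPKM in any GTMut or WT library, with Benjamini-Hochberg adjustment and a threshold of 0.05. Scripts were tested on simulated data. Gene positions and overlaps came from GENCODE M21 (same build), where 12169 genes (95.6%) matched, and 1944 share exonic bases with another. Promoters came from RefSeq. Figures used matplotlib 3.10.9.

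The members, lists and tests were chosen with earlier results of these data known. Named genes are Marf1, the largest changes in FPKM and in log2 fold change, up to 3 risers and 3 fallers of each list or family by p-value, genes listed at 0 in 1 genotype, genes within 1 Mb of Marf1, 5 level genes and abundant markers, 268 in all, some of which are not reported here. The Wnt ligand and inhibitor genes, Lrp6, Nlrp14, Id1, Id4, Fmn2, Eed, Slc6a6, Hey1, Hey2, Lhcgr, Tnfaip6, Ptx3 and Ptprc fall outside that rule and were chosen after their values were seen.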

Additional observations from a re-analysis of the deposited data

Results flagged for a closer look

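In groups of 4 libraries, a library was singled out when its gap to the nearest other exceeded Dixon's critical value for the group's range, which chance does in about 1 of 20 groups. Of 422 groups of values examined, 19 met this, so their number is no more than chance gives. Cphx1, the oocyte homeobox gene, had a high library: GTMut replicate 3 read 20.6 FPKM against 0.415 to 3.52 FPKM in the other GTMut libraries. Tfeb and Usp17lc were listed at 0 in WT except for 0.0889 FPKM in replicate 1 and 0.107 FPKM in replicate 4. Single WT libraries stood low for Kitl (1.95 FPKM against 2.78 to 2.94), Nr2c2 (0.572 against 0.754 to 0.777) and Suz12 (115 against 128 to 131), and high for C86187 (1240 against 1120 to 1130), Gclc (5.85 against 5.49 to 5.54), Tspan3 (33.7 against 26.8 to 27.5), Tuba1b (86.1 against 77.6 to 78.8) and Tubb2a (716 against 657 to 665). Single GTMut libraries stood low for Gsta4 (2.2 FPKM against 3.02 to 3.08), Pecam1 (10.9 against 11.6 to 11.7), Tuba1b (193 against 203 to 205) and Wasl (46.9 against 53.3 to 54.3), and high for Rab5a (149 against 132 to 134), Rbbp5 (97.3 against 95 to 95.2), Tceb1 (593 against 491 to 503) and Tgif1 (211 against 198 to 200). The genotypes did not overlap for any of these genes except Tceb1, which did not pass the test (0.26, passing, under quantile normalization). For Cphx1, C86187 and Tspan3 the naming rule required that lack of overlap.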

How the results depend on the processing

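Leaving out 1 library at a time gave 4809 to 4848 genes higher and 4927 to 4975 lower, 2494 to 2534 and 1235 to 1266 at 2-fold, 1160 to 1180 and 154 to 166 at 4-fold, and 595.9 to 627.9 more genes detected in GTMut. It gave a Marf1 log2 fold change of -3.49 to -3.44, 2290 to 2628 genes higher and 2189 to 2412 lower than in D272Mut, and 254 to 256 of the 256 passing named genes kept. Same-numbered libraries did not deviate together (r from -0.36 to 0.0361), which cannot show whether they shared a mouse or day. With a replicate block 4906 genes were higher and 5068 lower, and without the D272Mut libraries 4941 were higher and 5134 lower. A mean of at least 5 FPKM left 8101 genes tested, of which 3198 were higher. A pseudocount of 0.1 gave 1820 genes higher and 441 lower at 4-fold. Quantile normalization moved the share of higher calls from 49.2% to 39.2% of passing genes. It gave 2051 genes higher and 2007 lower at 2-fold, and 945 higher and 260 lower at 4-fold. It left 7 lists in place of 12 with more members higher than lower, and the cause was not tested. It reversed the log2 fold changes of Zbed3 (1.30), Gdf9 (0.14), Spin1 (0.06) and Zp3 (0.18), and gave passing values to Bmp15 (0.24), Hmgn1 (0.18), Tceb1 (0.26), Nde1 (-0.32) and Abcc1 (-0.32). It also turned the balance of histone acetylation (12 higher, 14 lower), nuclear receptors (14 and 17), lipid droplet genes (8 and 10) and Slc genes (66 and 97), while median-ratio rescaling turned Notch (9 and 8). Over all 12732 genes quantile normalization gave 4089 higher and 6353 lower, so its list counts are read against that balance. Of all values for printed genes and lists, 3559 kept their direction and side of the threshold or stayed within 1.5 times. Another 17 reversed in direction or balance, those of Bmp15, Hmgn1 and Abcc1 among them, and 15 moved past these limits without reversing. FPKM values keep no depth, so no counting interval can be given, and genes listed at 0 may lie below what these libraries detect.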
